A study of Mus musculus with 4 samples.

Results

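The genes described here are 10 genes that define regulatory T (Treg) cells or carry the signal of interleukin-2 (IL-2) into them, namely Foxp3, Ikzf2, Ikzf4, Il2ra, Il2rb, Il2rg, Nrp1, Stat5a, Stat5b and Lrrc32. They were picked by symbol, and each symbol matched 1 of the 53379 genes in the expression table. RNA-seq was performed on large intestinal (LI) Treg cells, sorted by CD3, CD4 and YFP, of C57BL/6 mice at steady state, aged 6 to 12 weeks by the methods, and 4 libraries were compared. The 2 control libraries came from Foxp3Cre-YFP Setd2 f/+ mice, which carry 1 floxed and 1 intact copy of Setd2, and the 2 KO libraries came from littermate Foxp3Cre-YFP Setd2 f/f mice with 2 floxed copies. In both groups Cre and YFP were made under the control of Foxp3, so both groups carry a modified Foxp3 locus and Cre acts in the cells that express it. Each library was a pool of 2 to 3 mice, and the spread within a group is therefore the spread between 2 pools.

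Foxp3 is the transcription factor that sets the Treg lineage, and Ikzf2 (Helios) and Ikzf4 (Eos) are zinc-finger factors of the Ikaros family that are found with it. Treg cells make little IL-2 of their own and depend on IL-2 from other cells. The receptor is built from the alpha chain CD25 (Il2ra), the beta chain CD122 (Il2rb) and the common gamma chain (Il2rg). The beta and gamma chains signal through JAK kinases to STAT5A and STAT5B, which in turn act on Foxp3 and Il2ra. Neuropilin-1 (Nrp1) is a surface receptor used with Helios to mark Treg cells of thymic origin, and Lrrc32 encodes GARP, which holds latent TGF-beta on the Treg surface.

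The transcripts of Stat5a and Stat5b deserve a look before their values, because a read that comes from a stretch shared by both genes cannot be assigned by its sequence. Stat5a (ENSMUSG00000004043, chr11:100859351-100885169, plus strand) and Stat5b (ENSMUSG00000020919, chr11:100780731-100850724, minus strand) are neighbours in GRCm38. In the longest coding transcript of each gene in GENCODE, the coding sequences are 2379 and 2358 bases long, and 90.7% of the 2343 aligned positions are identical. The longest identical run covers bases 571 to 894 of each coding sequence, counted from 1 at the start codon. Its first 150 bases, the length of a read in these libraries, are shown to illustrate a read that fits both genes.
Stat5a and Stat5b: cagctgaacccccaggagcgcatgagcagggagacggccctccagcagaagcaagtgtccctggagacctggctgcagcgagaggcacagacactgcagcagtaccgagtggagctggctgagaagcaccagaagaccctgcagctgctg
The stretch in which the pair differs most without a gap lies at bases 85 to 144 of each coding sequence, where 19 of 60 positions differ. The differing bases are in capitals.
Stat5a: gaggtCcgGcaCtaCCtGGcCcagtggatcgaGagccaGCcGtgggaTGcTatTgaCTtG
Stat5b: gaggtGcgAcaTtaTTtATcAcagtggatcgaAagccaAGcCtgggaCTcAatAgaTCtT
Windows of 150 bases that also occur in the other gene made up 4.68% of the windows of the Stat5a transcript and 3.46% of those of Stat5b. Most reads of this length therefore tell the genes apart, and RSEM divides the remaining ones by a model.

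Among the other genes, the longest coding transcripts of Ikzf2, Ikzf4, Il2ra, Il2rb, Nrp1 and Lrrc32 shared no window of 150 bases with a transcript of another gene. Il2rg shared 38.2% of its windows with Gm20489, a gene annotated across it on the same strand, but Gm20489 had an FPKM of at most 1.44 in any library. Foxp3 shared 5.75% of its windows, on the opposite strand, with Ccdc22, whose FPKM lay between 8.98 and 14.36. Flicr, a noncoding gene annotated on the strand of Foxp3, overlapped 18.64% of the exon bases of Foxp3 and lay between 2.29 and 2.94 FPKM, close to Foxp3 itself. Ppp1r3f and Gm36995 overlapped 5.81% and 8.15% of these bases on the opposite strand. Stat5a overlapped Stat3 on the opposite strand over 72 exon bases, and Stat3 reached an FPKM of 1068. Whether the reads were counted by strand is not given in the sources used here, so Foxp3 and Stat5a may hold some reads of these neighbours, and reads shared with Flicr are not told apart by strand at all.

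Levels are given in FPKM (fragments per kilobase of transcript, scaled to the mapped fragments of the library), which is a value per length and can be set side by side between genes. At the top ranks, the FPKM of the 4 libraries followed a common distribution, as quantile normalization gives. Among the top 5000 ranks, 2172 had an identical FPKM in every library. The columns therefore give no depth, and no counting error can be given. They still differed in how many genes were at 0 FPKM. This number was lowest in control 2, at 28426, while every other library lay between 33223 (KO 2) and 33957 (control 1). Whether depth or quality set control 2 apart was not tested. Because the cells were measured in bulk, fewer cells that express a gene and less RNA per cell cannot be told apart. Setd2, the targeted gene, overlapped between the groups (38.2 and 27.4 FPKM in control 1 and 2, 26.3 and 36.3 in KO 1 and 2), and an FPKM over the whole gene does not check the loss of the floxed exons. Control and KO below stand for the libraries as labelled.

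**Figure D1:**
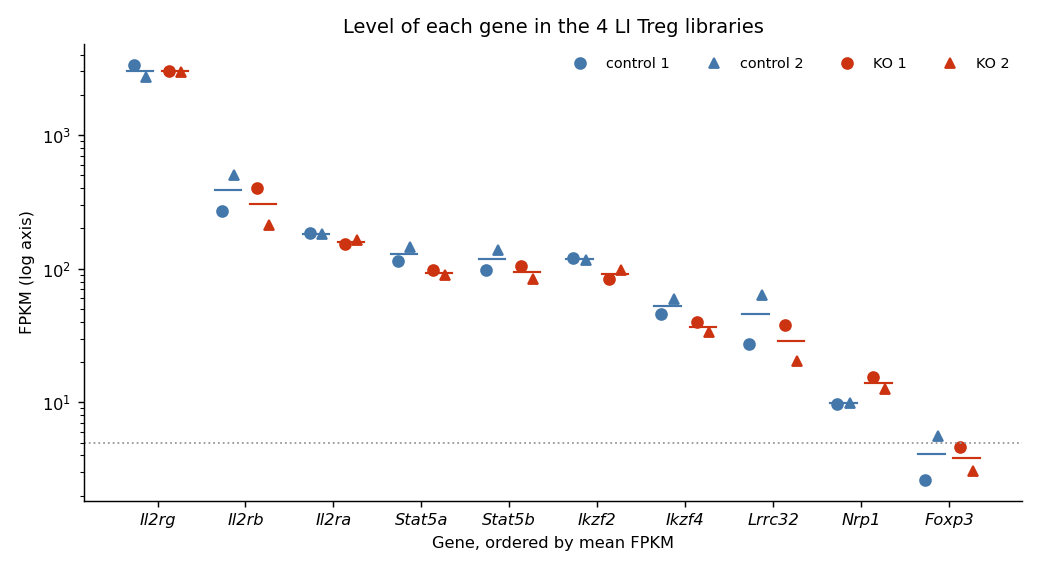
FPKM of each gene on a log axis (vertical) in control 1, control 2, KO 1 and KO 2, with genes ordered by mean FPKM. Points are libraries, short lines are group means of 2 libraries, and the dotted line is the FPKM of 5 that a group mean had to pass for testing. Il2rg lies above all the others and Foxp3 below them.

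The genes spanned a wide range of levels. Il2rg was the highest, followed by Il2rb and Il2ra, then by Stat5a, Stat5b and Ikzf2, then by Ikzf4 and Lrrc32, with Nrp1 and Foxp3 lowest. The order of Il2rg, Il2rb and Il2ra was the same in 4 of 4 libraries, and their ranges were apart. The ranges of Stat5a and Stat5b overlapped, as did those of Stat5b and Ikzf2 and those of Ikzf4 and Lrrc32, so the order within these pairs is not beyond the spread between libraries.

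Foxp3 (ENSMUSG00000039521, chrX:7573644-7595245), the defining gene of the sorted cells, was the lowest of the genes described here. It measured 2.62 (control 1), 5.61 (control 2), 4.66 (KO 1) and 3.05 (KO 2) FPKM. The groups overlapped completely, with both KO libraries between the controls. Compared with the genes tested in each library, it lay at percentiles 0.5, 7.2, 3.0 and 0.9 in the same order. Those genes had to pass a mean of 5 FPKM in a group, so a low percentile among them was set by that filter. The control mean was 4.12 ± 2.11 FPKM and the KO mean 3.86 ± 1.14 FPKM (SD, n = 2 each), so Foxp3 did not pass the filter for testing. With a filter at an FPKM of 1, the difference on the log2(FPKM + 1) scale was -0.03 (95% interval -0.81 to 0.75, limma adjusted p = 0.978). The interval is wide, so a difference in Foxp3 in either direction was not detectable with these libraries.

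The level of Foxp3 itself goes against the Treg label of the libraries. Some other genes used to define these cells were high, but not all. The CD4 T cell genes Cd3d, Cd3e, Cd3g and Cd4 summed to between 1131 and 1234 FPKM. Ctla4, a Treg checkpoint receptor, had at least 1593 FPKM in every library, and Tnfrsf4 (OX40), a costimulatory receptor of activated Treg cells, had at least 6254. Other Treg signature genes were far lower. Gpr83, Entpd1, Itgae and Ebi3 had at most 19.6, 25.4, 31.1 and 38.2 FPKM in any library. Why Foxp3 was listed so low was not tested.

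The receptor chains came next in the pathway. Il2ra (ENSMUSG00000026770, chr2:11642807-11693193) measured 184 (control 1), 180.4 (control 2), 152 (KO 1) and 163 (KO 2) FPKM. Both KO libraries lay below both controls, and the gap between the controls was small. The KO mean was 0.865 times the control mean, the log2 difference was -0.21 (SE 0.11), and limma gave an adjusted p of 0.392. The 95% interval, -0.46 to 0.04, included no difference.

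Il2rb (ENSMUSG00000068227, chr15:78479256-78495271) showed another picture. It measured 270.2 (control 1), 501 (control 2), 402 (KO 1) and 211 (KO 2) FPKM. Libraries of the same group stood far apart, and the groups overlapped. The gap between the controls was 0.89 on the log2 scale and exceeded that of 98.6% of the genes tested, and the gap between the KO libraries was 0.93 and exceeded that of 99.0%. The log2 difference between KO and control was -0.34 with an SE of 0.35 (limma adjusted p = 0.688). It was 0.11 without control 2 and 0.13 without KO 2, so leaving out either of these libraries turned its sign.

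Il2rg (ENSMUSG00000031304, chrX:101264378-101268255), which is shared by several cytokine receptors, was among the most abundant genes of these cells. It measured 3361 (control 1), 2704 (control 2), 3029 (KO 1) and 2962 (KO 2) FPKM. The KO libraries lay between the controls. The log2 difference was -0.01, with a 95% interval of -0.33 to 0.31 (limma adjusted p = 0.985).

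The STAT5 genes transmit the signal of these chains. Stat5a measured 114 (control 1), 144 (control 2), 97.6 (KO 1) and 89.6 (KO 2) FPKM. Both KO libraries were below both controls. The KO mean was 0.723 times the control mean, the log2 difference was -0.45 (SE 0.14), and the limma adjusted p was 0.203, the lowest of the genes described here. Its unadjusted p was below 0.05, the level used by the study for its gene lists.

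Stat5b measured 97.7 (control 1), 139 (control 2), 105 (KO 1) and 83.8 (KO 2) FPKM. KO 1 lay above control 1, so the groups overlapped. The log2 difference was -0.31 (SE 0.19, limma adjusted p = 0.460), which is a wider error than that of Stat5a around a similar value. The difference between Stat5a and Stat5b was itself measured by their ratio within each library, given below.

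Both Ikaros factors were lower in KO. Ikzf2 (ENSMUSG00000025997, chr1:69531214-69687245) measured 121 (control 1), 116 (control 2), 84.1 (KO 1) and 98.4 (KO 2) FPKM. The groups did not overlap. The mean was 118 ± 3.66 FPKM (SD, n = 2) in control and 91.2 ± 10.1 in KO. The log2 difference was -0.37 (SE 0.12), with an unadjusted p below 0.05 and a limma adjusted p of 0.222.

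Ikzf4 (ENSMUSG00000002578, chr10:128630843-128645991) measured 45.7 (control 1), 59.7 (control 2), 40.2 (KO 1) and 33.5 (KO 2) FPKM. The groups again did not overlap, although the controls differed by more than the nearest control and KO libraries. Its log2 difference was -0.50 (SE 0.17), with an unadjusted p below 0.05 and a limma adjusted p of 0.222.

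Nrp1 (ENSMUSG00000025810, chr8:128358604-128503363) was the only gene of the 9 tested with a value higher in KO. It measured 9.79 (control 1), 9.93 (control 2), 15.4 (KO 1) and 12.5 (KO 2) FPKM. The controls were nearly equal and both KO libraries lay above them. The KO mean was 1.41 times the control mean and the log2 difference was 0.45 (SE 0.18), with an unadjusted p below 0.05 and a limma adjusted p of 0.277. Nrp1 is also made by endothelial and myeloid cells. The summed FPKM of the stromal and endothelial markers was 36.2 and 37.1 in control and 50.7 and 43.8 in KO. Nearly all of it was Pecam1, while Cdh5, the defining endothelial cadherin, was at most 0.11 FPKM. Of the 5 myeloid markers tested, 5 had a positive log2 difference, as did 3772 of all 7639 genes tested. Both KO libraries lay above both controls for 3 of the 5, beside 24.2% of all genes tested. Fcgr3 measured 12.5 and 8.98 FPKM in control and 16.02 and 20.6 in KO, Cd14 32.4 and 36.8 against 40.2 and 42.0, and Adgre1 4.38 and 3.66 against 5.60 and 6.24. Lyz2 and Csf1r overlapped between the groups. The part of other cells in the value of Nrp1 was not tested.

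Lrrc32 (ENSMUSG00000090958, chr7:98489283-98502181) had the largest log2 difference in size and the largest error. It measured 27.2 (control 1), 64.0 (control 2), 37.7 (KO 1) and 20.2 (KO 2) FPKM. Library 2 of the control group was far above the others, and KO 1 exceeded control 1. The gap between the controls was 1.21 on the log2 scale, larger than that of 99.6% of the genes tested. The log2 difference was -0.58 (95% interval -1.53 to 0.38, limma adjusted p = 0.533), and it was 0.02 without control 2.

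**Figure D2:**
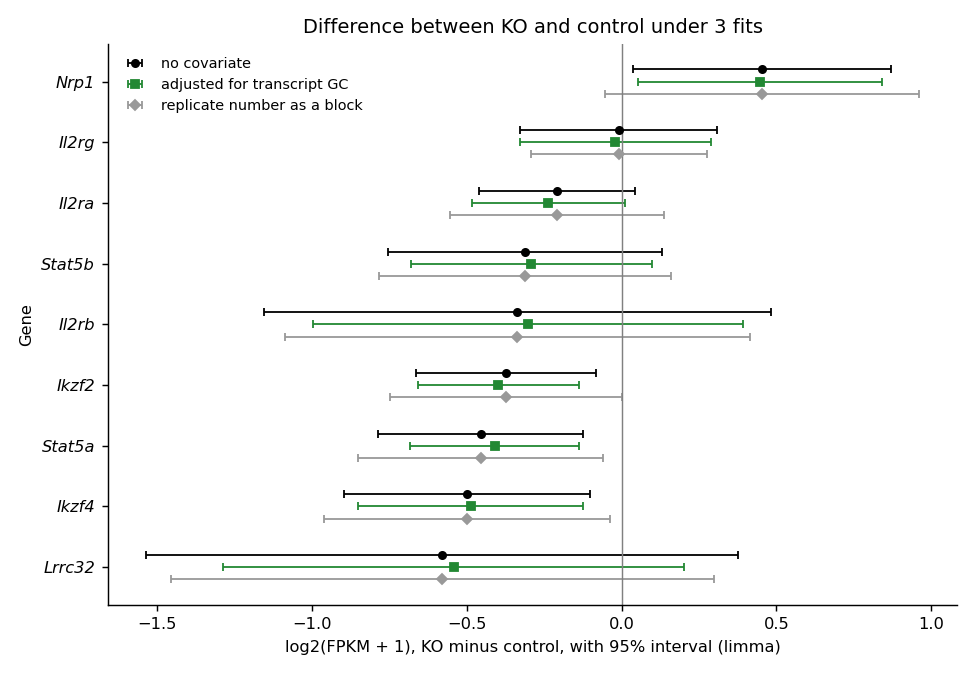
Difference between KO and control on the log2(FPKM + 1) scale (horizontal) for the 9 genes tested, with 95% intervals from limma. Symbols are the fit with no covariate, the fit after adjustment of each library for transcript GC content, and the fit with the replicate number as a block. Nrp1 lies above 0 and Il2rg at about 0, and the intervals of Il2rb and Lrrc32 are the widest.

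Set against all genes tested, 0 of 9 genes passed an adjusted p of 0.05 in limma, compared with 0.314% of 7639 genes that were higher in KO and 0.275% that were lower. At an unadjusted p below 0.05, 3 of 9 genes were lower (Ikzf2, Ikzf4 and Stat5a) beside a background of 7.57%, and 1 of 9 was higher (Nrp1) beside 8.61%. Both KO libraries lay below both controls for 4 of 9 genes, with Il2ra as the fourth, where 22.9% of all genes did, and above them for 1 of 9, where 24.2% did. The median log2 difference of the 9 genes was -0.34 and that of all genes was -0.004. Of the 9 genes, 8 had a negative value, as did 3867 of all 7639 genes tested. Among the 8, Il2rg was at -0.01, and Il2rb and Lrrc32 turned positive without control 2.

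Each of the 4 unadjusted calls was lost when certain libraries were left out. Ikzf4 and Stat5a stayed below an unadjusted p of 0.05 without control 1 or without KO 1, but not without control 2 or KO 2. Ikzf2 stayed without control 2 or without KO 2 only, and Nrp1 without KO 2 only. With the replicate number as a block, 2 of 9 genes, Ikzf4 and Stat5a, had an unadjusted p below 0.05. For 2 libraries against 2, the smallest p of an exact permutation test is 0.333, so these p-values depend on limma's use of the spread of all genes together.

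Ratios within a library do not move with a factor that scales the whole library. A step that acts by rank, as quantile normalization does, can still move them. The ratios describe the proportions of the parts of the receptor within this limit. The Il2ra/Il2rb ratio of FPKM was 0.680 (control 1), 0.360 (control 2), 0.379 (KO 1) and 0.771 (KO 2). It varied more within each group than between the groups. The same held for Il2rb/Il2rg, at 0.0804, 0.185, 0.133 and 0.0713 in the same order. The Il2ra/Il2rg ratio was steadier, at 0.0546, 0.0667, 0.0502 and 0.0549, and the groups overlapped, with KO 2 just above control 1.

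The Stat5a/Stat5b ratio was 1.17 (control 1), 1.04 (control 2), 0.933 (KO 1) and 1.07 (KO 2). The groups overlapped, and the log2 difference of -0.14 had an exact permutation p of 0.667. The smallest p that this test can give here is 0.333, so it could not have detected a different response of the STAT5 genes. The Ikzf2/Ikzf4 ratio was 2.64, 1.94, 2.09 and 2.94 in the same order and overlapped as well. The Foxp3/Il2ra ratio was at most 0.0311 in any library.

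Nrp1/Ikzf2 was the only one of the 7 ratios whose groups did not overlap. Both KO libraries lay above both controls for Nrp1 and below them for Ikzf2. The separation of the ratio and its permutation p therefore follow from the values given above and are no further result. It was 0.0811 (control 1), 0.0859 (control 2), 0.183 (KO 1) and 0.127 (KO 2), with a log2 difference of 0.87. The exact permutation p was 0.333, the smallest that 2 against 2 libraries allow. Both genes are used as markers of thymic Treg cells, and their values differed between the groups in opposite directions here.

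**Figure D3:**
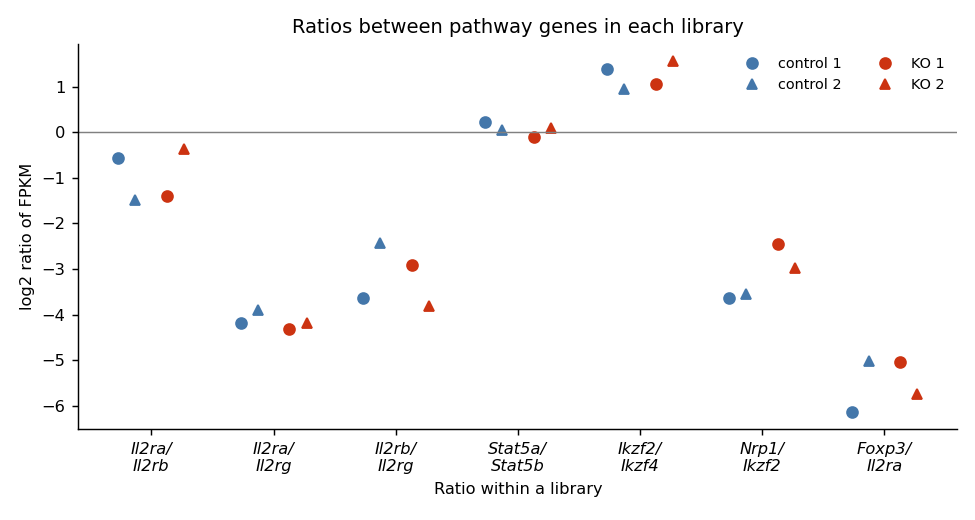
log2 ratio of the FPKM of paired genes (vertical) in each of the 4 libraries. Circles are replicate 1 and triangles replicate 2 of control and KO. Only in Nrp1/Ikzf2 do both KO libraries lie on 1 side of both controls. In Il2ra/Il2rb and Il2rb/Il2rg, control 2 and KO 1 lie together.

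A split of the libraries that followed neither genotype nor replicate number ran through several of these genes. In Foxp3, Il2rb, Stat5b and Lrrc32, control 2 and KO 1 both exceeded control 1 and KO 2. Of the 9 genes tested this held for 3, and for 17.7% of all genes tested. The mean log2 difference between these pairs of libraries was 1.04 for Lrrc32, 0.91 for Il2rb, 0.68 for Foxp3 and 0.41 for Stat5b. Each of these values is larger than the same gene's difference between KO and control.

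The GC content of the transcripts went along with this split. Across 7631 genes with a coding transcript, the difference of control 2 and KO 1 from control 1 and KO 2 had a Spearman rho of 0.404 with transcript GC, while the difference between KO and control had -0.081. These points share the same 4 libraries and are given as a description. The 4 genes of the split had GC contents of 58.4% (Lrrc32), 55.0% (Foxp3), 53.9% (Il2rb) and 52.7% (Stat5b), above the median of 49.5%. Ikzf2 at 40.1% and Il2ra at 44.4% lay below it and showed differences of -0.14 and -0.06 between the same pairs of libraries. Stat5a, at 55.8%, had 0.23. The part of GC content in the spread of these genes was not tested.

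**Figure D4:**
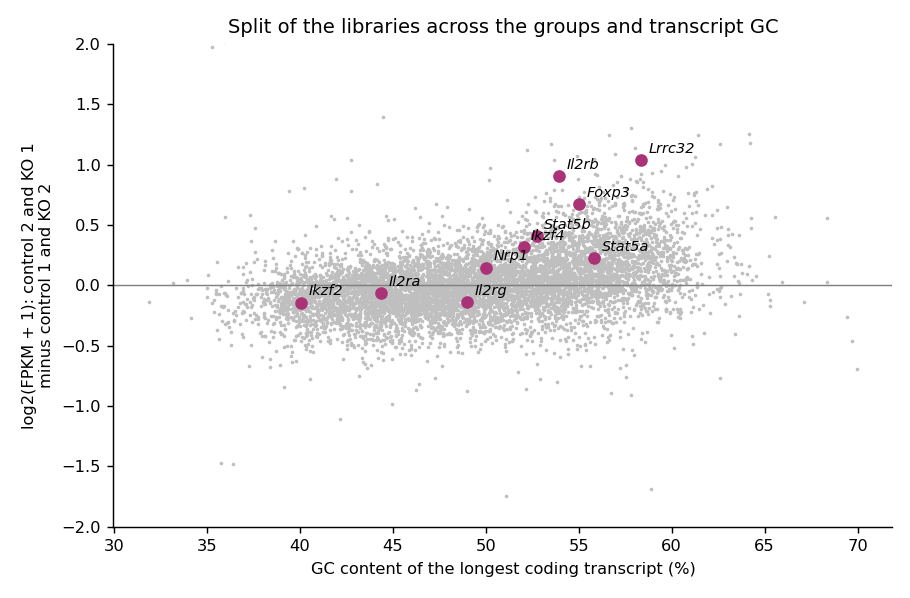
Mean log2(FPKM + 1) of control 2 and KO 1 minus that of control 1 and KO 2 (vertical) against the GC content of the longest coding transcript (horizontal, %). Grey points are the genes tested and purple points the genes described here, Foxp3 included, and 5 grey points lie outside the vertical range. Lrrc32, Il2rb, Foxp3 and Stat5b lie in the upper right.

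After adjustment of each library for transcript GC, a step chosen after the data were seen, the differences between KO and control hardly moved. That of Ikzf2 was -0.40 (limma adjusted p = 0.133), that of Stat5a -0.41 (limma adjusted p = 0.140), that of Ikzf4 -0.49 (limma adjusted p = 0.172) and that of Nrp1 0.45 (limma adjusted p = 0.220). The same 4 genes had an unadjusted p below 0.05.

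The pathway around these genes was described with 12 lists that hold 110 further genes, of which 88 were tested. At an unadjusted p below 0.05, 4 of 88 were higher in KO, beside 8.61% of all genes tested, and 13 of 88 were lower, beside 7.57%. Of these, 1 rose (Pde3b) and 1 fell (Gpr83) at an adjusted p below 0.05. The median log2 difference of the 88 genes was -0.09.

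Most ligands of the common gamma chain were low in these cells. Of 6 ligands, 2 were tested and 0 passed an unadjusted p of 0.05. Il2, too low to be tested, had 0.09 and 0.01 FPKM in control and 0.69 and 1.68 in KO. Il4, a type 2 cytokine, was the highest, between 15.8 and 31.6 FPKM (log2 difference 0.35, limma adjusted p = 0.574). Il9 lay between 2.34 and 10.2 FPKM, and Il21 was at most 2.09.

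Of the 4 tested chains that pair with Il2rg or Il2rb, 0 passed an unadjusted p of 0.05. Il7r, the alpha chain of the IL-7 receptor, was even across the libraries, between 95.7 and 109.5 FPKM (log2 difference 0.05, limma adjusted p = 0.887). Il4ra had 66.7 and 151 FPKM in control and 135 and 70.3 in KO. Il21r had 189 and 339 FPKM in control and 255 and 177 in KO. Both followed the same split of the libraries as Il2rb.

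Among the JAK kinases and brakes of the receptor, 8 of 10 were tested. By an unadjusted p below 0.05, 1 was lower (7.57% of all genes) and none higher (8.61% of all genes). The lower one was Cish, an inhibitor that STAT5 itself induces, at 161 and 229 FPKM in control and 136 and 148 in KO (log2 difference -0.43, limma adjusted p = 0.281). Jak1, which binds the beta chain, had 261 and 276 FPKM in control and 242 and 214 in KO (log2 difference -0.24, limma adjusted p = 0.358). Socs2 had a KO value on either side of the controls. None of the 7 tested adaptors and PI3K genes passed an unadjusted p of 0.05, and their median log2 difference was 0.07. Lck, the kinase of the T cell receptor and of the IL-2 receptor, had 643 and 677 FPKM in control and 813 and 683 in KO, while Grb2 and Pik3r1 had log2 differences of -0.05 and 0.06.

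Of the 12 tested genes that IL-2 and STAT5 are known to induce, 4 were lower (7.57% of all genes) and none higher (8.61% of all genes) by an unadjusted p below 0.05, 0 passed an adjusted p of 0.05, and the median log2 difference was -0.14. Besides Cish, these were Myc, a driver of growth, Bcl2, which blocks apoptosis, and Ccnd2, a D-type cyclin. Myc had 63.4 and 77.0 FPKM in control and 39.9 and 37.8 in KO (log2 difference -0.83, limma adjusted p = 0.061). Bcl2 had 11.2 FPKM in both controls and 6.54 and 6.14 in KO (log2 difference -0.73, limma adjusted p = 0.126). Ccnd2 had 399 and 418 FPKM in control and 304 and 323 in KO (log2 difference -0.38, limma adjusted p = 0.162).

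Gzmb and Pim1, also abundant in this list, did not pass an unadjusted p of 0.05. Gzmb, the cytotoxic protease granzyme B, had 979 and 1548 FPKM in control and 1572 and 1926 in KO (log2 difference 0.50, limma adjusted p = 0.313). Pim1, a survival kinase, had the same value of 278 FPKM in control 1 and KO 1 (log2 difference -0.20, limma adjusted p = 0.479). Genes that IL-2 and STAT5 hold down had no call on the higher side. Of 5 tested, 1 was lower (7.57% of all genes) and none higher (8.61% of all genes) by an unadjusted p below 0.05, and their median was -0.46. Il6st, the signalling chain of the IL-6 receptor, had a log2 difference of -0.46 (limma adjusted p = 0.322).

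Of 27 tested partners and regulators of Foxp3, 1 was lower (7.57% of all genes) and none higher (8.61% of all genes) by an unadjusted p below 0.05. Rel, the NF-kB subunit c-Rel that acts on the Foxp3 locus, had 99.7 FPKM in both controls and 79.4 and 70.7 in KO (log2 difference -0.41, limma adjusted p = 0.176). Foxp1 and Rela, the most abundant of the list beside it, had log2 differences of 0.09 and -0.44 (limma adjusted p = 0.744 and 0.388).

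Of 15 tested Treg signature genes, 2 were higher in KO (8.61% of all genes) and 5 lower (7.57% of all genes) by an unadjusted p below 0.05. Gpr83, a G protein-coupled receptor enriched in Treg cells, fell from 19.6 and 17.1 FPKM in control to 6.13 and 7.92 in KO (log2 difference -1.27, limma adjusted p = 0.047). Without control 1, KO 1 or KO 2, its adjusted p was 0.090, 0.231 or 0.200, and with the replicate block it was 0.085. Tnfrsf9 (4-1BB), a costimulatory receptor, had 2460 and 3121 FPKM in control and 1548 and 1720 in KO (log2 difference -0.76, limma adjusted p = 0.074, and 0.045 with the replicate block).

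The other lower genes were Itgae (CD103), which binds E-cadherin, Nt5e (CD73), which makes adenosine, and Klrg1, an inhibitory receptor of mature Treg cells. Their log2 differences were -0.56, -0.38 and -0.38. Ctla4 had 1593 and 1701 FPKM in control and 2160 and 2310 in KO (log2 difference 0.44, limma adjusted p = 0.132). Capg, an actin-capping protein, had 706 and 695 FPKM in control and 1046 and 1015 in KO (log2 difference 0.56, limma adjusted p = 0.073). Tnfrsf4 and Tigit, the most abundant of the list, had log2 differences of 0.04 and -0.16.

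Of the 5 tested genes that Foxp3 holds down, 2 were higher in KO (8.61% of all genes) and 0 lower (7.57% of all genes) by an unadjusted p below 0.05. Pde3b, a phosphodiesterase, rose from 6.80 and 8.33 FPKM in control to 20.9 and 21.7 in KO (log2 difference 1.39, limma adjusted p = 0.027, and 0.040 with the replicate block). Without KO 1 or KO 2 its adjusted p was 0.192 or 0.240. Cd40lg (CD40 ligand) had 24.5 and 19.5 FPKM in control and 44.4 and 40.0 in KO (log2 difference 0.92, limma adjusted p = 0.065). Satb1 and Il7r, of the same list, had log2 differences of -0.22 and 0.05.

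The lists nearest to Ikzf2, Lrrc32 and Nrp1 held few calls. Of the 3 other Ikaros genes tested, 0 passed an unadjusted p of 0.05. Ikzf3 (Aiolos), the most abundant, had 212 and 231 FPKM in control and 201 and 189 in KO (log2 difference -0.18), and Ikzf1 and Ikzf5 had -0.10 and 0.02. Of the 5 tested partners of GARP and latent TGF-beta, 2 were lower (7.57% of all genes) and none higher (8.61% of all genes) by an unadjusted p below 0.05. They were Itgav and Itgb8, the chains of the integrin that releases active TGF-beta.

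Itgav had 99.9 and 126 FPKM in control and 69.6 and 69.7 in KO (log2 difference -0.68, limma adjusted p = 0.086). Itgb8 had 17.4 and 17.9 FPKM in control and 11.9 and 12.3 in KO (log2 difference -0.51, limma adjusted p = 0.189). Furin, a protease that cuts the TGF-beta precursor, and Nrros, a relative of GARP, had log2 differences of -0.18 and 0.05. Of 11 neuropilin ligands and co-receptors only Gipc1, an adaptor of Nrp1, was tested, with a log2 difference of 0.08. Sema4a and Plxna3 were at most 2.36 and 1.0 FPKM.

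**Figure D5:**
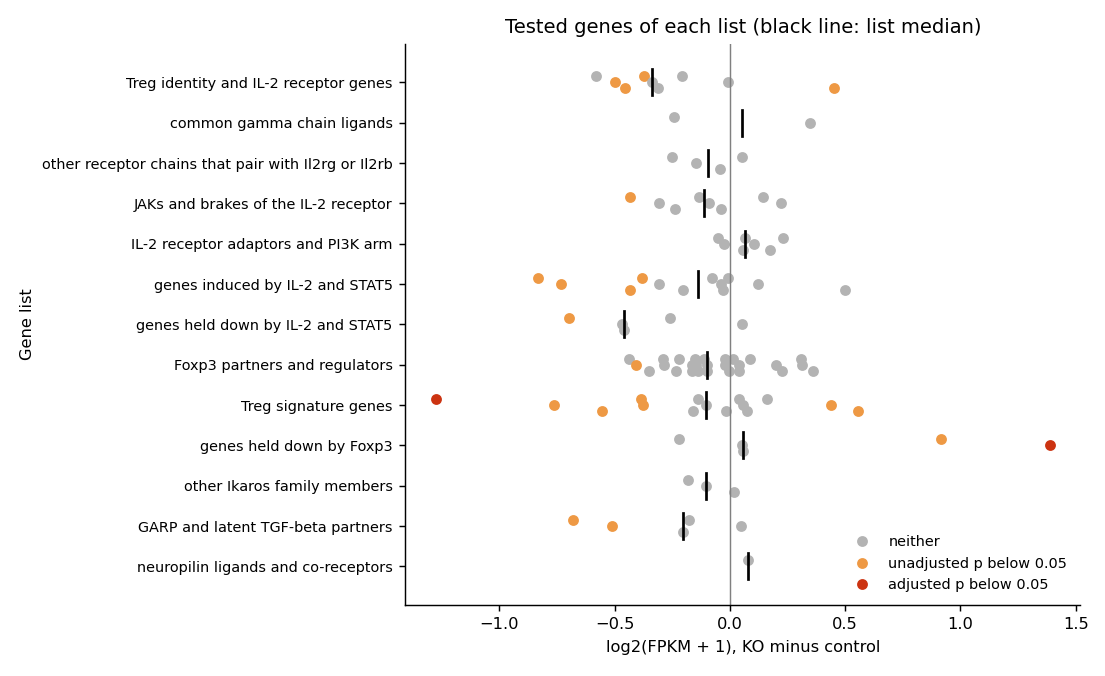
Difference between KO and control on the log2(FPKM + 1) scale (horizontal) for the tested genes of each list (rows), with black lines at list medians. Red points passed an adjusted p of 0.05 (Gpr83 and Pde3b), orange points an unadjusted p of 0.05, and grey points neither.

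Markers of other cells were mostly low, but Lyz2 (128 to 168 FPKM) of myeloid cells and Jchain (112 to 169 FPKM) of plasma cells were as high as Cd4 (131 to 220.4 FPKM). CD8 T cell markers summed to between 2.22 and 2.96 FPKM, B cell markers to between 12.1 and 16.2, and NK cell markers to at most 0.65. Of the 5 granulocyte and mast cell markers, S100a9 and Siglecf were at 0 in every library. The 7 myeloid markers summed to between 186 and 242 FPKM, most of it Lyz2, and the sums overlapped between the groups although Fcgr3, Cd14 and Adgre1 did not, and the 4 plasma cell markers summed to between 119 and 172 FPKM. The epithelial markers summed to 33.2 and 35.4 FPKM in control and to 27.5 and 28.6 in KO, nearly all from Epcam and Krt18, with Krt8, Krt20, Cdh1 and Vil1 below 1 FPKM. Epcam and Krt18 went opposite ways. Epcam had 28.65 and 30.81 FPKM in control and 19.58 and 21.13 in KO, and Krt18 had 4.23 and 4.52 in control and 7.22 and 7.18 in KO. Of 4 Y-linked genes tested, 2 had both KO libraries above both controls, beside 24.2% of all genes tested. Ddx3y had 77.3 and 58.1 FPKM in control and 88.0 and 102 in KO. Kdm5d had 4.32 and 1.80 FPKM in control and 5.31 and 7.24 in KO. Both had an unadjusted limma p below 0.05, where 8.61% of all genes tested were higher in KO. Eif2s3y had 52.1 and 30.3 FPKM in control and 37.4 and 49.7 in KO, and Uty had 34.6 and 27.3 in control and 28.2 and 34.1 in KO, so both overlapped between the groups. The X-linked noncoding gene Xist, which was not tested, had 7.22 and 7.02 FPKM in control and 5.08 and 6.41 in KO. The part of other cells and of the sex makeup of the pools in the differences above was not tested.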

How the data were processed

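The authors mapped paired reads of 150 bp from poly(A) RNA to GRCm38 (STAR v2.5, RSEM v1.2) and deposited FPKM for 53379 genes in 4 columns. The step that gave the columns a common distribution at the top ranks is not given in the sources used here. Gene types, positions and transcripts came from GENCODE release 21 of the same build (the authors used release 16), in which 53274 identifiers were found.

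The 7639 protein-coding genes whose mean FPKM exceeded 5 in control or KO were tested with limma 3.58.1 in R 4.3.3 on log2(FPKM + 1), with a trend and no covariate, two-sided, and p-values were adjusted over all of them by the Benjamini-Hochberg method. The pseudocount of 1 understates changes of low genes. The fit was tested on simulated data in which 200 of 7639 genes were changed by a log2 of 1. Of these, 64 were among the 67 genes that passed an adjusted p of 0.05 in limma, so most changes of this size were missed. The simulated libraries were drawn independently and did not hold the split of the libraries described above. Ratios were tested with an exact permutation test, two-sided. The coding sequences were aligned with Biopython 1.88.

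The 10 genes and all lists were chosen with earlier results of these data known. Named are the 10 genes, the genes of each list with an unadjusted p below 0.05, up to 3 of each list with the highest mean FPKM, Setd2 and the marker sums. The values of 1 gene that this rule covers are not reported here. Il2, the single markers, Eif2s3y, Uty, Xist and the genes overlapping a described gene were chosen once their values were known. The labels do not say whether equal replicate numbers mark a shared litter. Across genes, libraries with equal numbers deviated from the mean of their group with a correlation of -0.305, so the numbers were not taken as pairs. Alternatives were other pseudocounts, filters, gene types, scalings and empirical Bayes steps, the replicate number as a block, each library left out, and, chosen after the data were seen, a crossed pairing and an adjustment for transcript GC (natural spline, 5 degrees of freedom).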

Additional observations from a re-analysis of the deposited data

How the results depend on the processing

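No read depth is given, and with 2 libraries a group the spread of each gene is poorly known. No library carries an exon-level check of the Setd2 deletion. Of 7639 genes, 45 passed an adjusted p of 0.05 and 1236 an unadjusted p of 0.05. The first count was 27 with a mean FPKM of at least 1, 0 without a filter (limma, beside 1946 at an unadjusted p below 0.05), 13 with all gene types (5 higher and 8 lower, beside 24 and 21), 3 without a trend (1 higher and 2 lower), 27 with the replicate block and 108 after adjustment for transcript GC. Leaving out a library gave 2 to 66, the lowest counts being 2 without KO 1 and 3 without KO 2. The second count was 796 with the block and 644 to 1250 with a library left out. Of the 9 described genes tested, 0 passed an adjusted p of 0.05 under any alternative other than the crossed pairing, and 4 passed an unadjusted one, beside 2 with the block and 1 to 5 with a library left out. The crossed pairing, chosen after the data were seen, gave 465 and 1991 genes and 3 and 8 of the 9.

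Of 153 values of the 9 genes under the alternatives, 144 kept their direction and their side of the threshold and 6 reversed. Il2rg was 0.03 when quantile-normalized. With a library left out, the log2 difference ranged from -0.17 to 0.15 for Il2rg, from -0.80 to 0.13 for Il2rb and from -1.18 to 0.024 for Lrrc32. The ratios with a reversal ranged from -0.386 to 0.640 for Il2ra/Il2rb, from -0.931 to 0.275 for Il2rb/Il2rg, from -0.111 to 0.378 for Ikzf2/Ikzf4 and from -0.377 to 0.748 for Foxp3/Il2ra. The causes were not tested. A paired difference over equal numbers gives each ratio the same value as the main one (0.868 for Nrp1/Ikzf2).

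Among the other named genes, leaving out a library turned the direction of these, with ranges of -0.031 to 0.73 for Il4, -1.11 to 0.63 for Il9, -0.62 to 0.54 for Il4ra, -0.029 to 0.13 for Il7r, -0.67 to 0.17 for Il21r, -0.25 to 0.18 for Socs2, -0.074 to 0.19 for Pik3r1, -0.05 to 0.13 for Tnfrsf4, -0.14 to 0.17 for Ikzf5, -0.59 to 0.24 for Furin, -0.075 to 0.17 for Nrros, -0.14 to 0.30 for Gipc1 and -0.30 to 0.17 for Setd2. After adjustment for transcript GC, Il4ra was at 0.004 and Ikzf5 at -0.008.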
